A study of Homo sapiens with 8 samples.

Results

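The cytosolic ribosomal protein genes were followed across RNA-seq libraries of Jurkat cells, an established line of human T-cell acute lymphoblastic leukemia (T-ALL), in which the gene for CBAP (TMEM102) had been knocked down or knocked out. Members were chosen by gene symbol alone (RPL or RPS with a number, RPLP0 to RPLP2, RPSA and FAU), leaving out the RPS6K kinases and entries that join several genes. This gave 81 of the 13453 entries of the deposited table, 48 of the large and 33 of the small subunit. Of the 79 genes listed for the canonical human ribosomal proteins, 75 were among them. RPL17, RPL36A and RPS10 were not, since the table gives them only in joined entries. The remaining 6 members, RPL22L1, RPL26L1, RPL39L, RPL7L1 and RPS27L among them, are paralogs or copies of canonical genes.

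The study compared CBAP-deficient with CBAP-expressing cells in 4 conditions of 2 libraries each. In the shRNA set, sh-Ctrl cells carried a non-targeting lentiviral shRNA and sh-CBAP cells one against CBAP, both under puromycin selection. In the CRISPR set, both conditions were CBAP-KO cells, which the methods describe as grown from sorted single cells after CRISPR/Cas9 editing. CBAP-reconstituted cells had received a CBAP-GFP gene, and CBAP-KO cells carried GFP in its place. The difference within this set is thus between a knockout line with and without the returned gene, and no unedited cells were sequenced in it. The labels do not say whether the libraries of a condition came from separate clones or cultures, so the p-values measure only the spread between these libraries.

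Each ribosome consists of a small subunit, which reads the mRNA, and a large subunit, which joins the amino acids, and most ribosomal proteins are present once per particle. Growing cells, leukemia cells among them, express the genes of both subunits at high levels. In mammals they typically begin with a 5′ terminal oligopyrimidine (TOP) motif, a cytosine followed by an unbroken run of pyrimidines, through which mTORC1 and the RNA-binding protein LARP1 control their translation and stability. RPS6, a small subunit protein, is also the classical substrate of the mTORC1-dependent S6 kinases, the branch of signaling that the study examined.

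The start of the transcript was read from RefSeq (GRCh38.p14) for the 64 members that matched the table of starts. A TOP start was taken as C at the first base within an unbroken run of at least 5 pyrimidines, on the strand of the gene. Of the 64 members, 42 had one (65.6%), against 3.90% of 27241 other RefSeq starts and 5.19% of the 8029 other tested genes with a start. The runs had a median of 8 bases and reached 19 in RPL39. The windows below hold 10 bases before the start and 20 from it, with the TOP run in capitals, and show some of the genes with the largest changes in either set together with those that went up. RPS12, RPL14, RPL39, RPS21 and RPS3A were among the members furthest down in CBAP-KO cells, and RPL22 and RPLP0 among the few that were up. RPS13, RPSA and RPL27A changed in opposite directions in the sets. RPL32, RPS7, RPS29 and RPL6 had no TOP start at the listed position. The annotated first base can differ between transcripts of a gene.
RPS12, chr6:132814559-132814588, plus strand: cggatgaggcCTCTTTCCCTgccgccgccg
RPL14, chr3:40457329-40457358, plus strand: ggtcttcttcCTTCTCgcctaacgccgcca
RPL39, chrX:119791611-119791640, minus strand: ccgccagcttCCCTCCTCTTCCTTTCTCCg
RPS21, chr20:62387093-62387122, plus strand: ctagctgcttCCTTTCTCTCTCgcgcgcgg
RPS3A, chr4:151099618-151099647, plus strand: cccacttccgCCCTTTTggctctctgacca
RPL22, chr1:6199576-6199605, minus strand: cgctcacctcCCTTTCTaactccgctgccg
RPLP0, chr12:120201092-120201121, minus strand: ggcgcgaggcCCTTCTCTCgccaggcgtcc
RPS13, chr11:17077648-17077677, minus strand: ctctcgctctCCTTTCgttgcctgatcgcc
RPSA, chr3:39406710-39406739, plus strand: tgccgcctgtCTTTTCCgtgctacctgcag
RPL27A, chr11:8682782-8682811, plus strand: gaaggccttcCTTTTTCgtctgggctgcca
RPL32, chr3:12841546-12841575, minus strand: acgacccatcagcccttgcgcgccaccgtc
RPS7, chr2:3575250-3575279, plus strand: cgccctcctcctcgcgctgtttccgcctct
RPS29, chr14:49598691-49598720, minus strand: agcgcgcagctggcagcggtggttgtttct
RPL6, chr12:112411423-112411452, minus strand: gtatcctcagtgaatcagaaccagaaaaag

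The authors deposited one FPKM value per gene and library, in which the fragments of a gene are scaled to its exon length and to the fragments mapped in the library. The values are not counts, so the sequencing depth is unknown and no counting interval was computed. FPKM summed to between 362082 and 434742 per library. TMEM102 had FPKM of 4.07 and 4.74 in sh-Ctrl, 2.69 and 2.89 in sh-CBAP and was listed at 0 throughout the CRISPR set. It therefore gave no check of which of those libraries express CBAP. Of the 6 T-cell markers listed, CD3D (446 to 553), CD3E (364 to 1020) and LCK (218 to 303) had the highest FPKM, followed by CD3G (55.8 to 111) and CD7 (38.1 to 204), and CD28 (2.59 to 37.5) had the lowest. Of the markers of other cells, MS4A1, LYZ, CD14, CSF1R and HBB have no entry in the table, and CD79A was at 0.732 to 22.5 and EPOR at 1.43 to 4.45, a range that for CD79A overlaps that of CD28.

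The share of all FPKM taken by the ribosomal protein genes was 10.9% and 10.2% in the sh-Ctrl libraries, 11.3% and 11.3% in sh-CBAP, 10.3% and 10.2% in CBAP-reconstituted and 8.18% and 9.72% in CBAP-KO. The 2 CBAP-KO libraries differed through 1 gene: RPLP1 was listed at 7540 in replicate 2 and at 1224 in replicate 1. Without RPLP1 the CBAP-KO shares were 7.86% and 7.80%, below the 9.92% to 11.1% of the other 6 libraries. The median member stood at 359 to 421 FPKM in these 6 libraries and at 274 and 271 in CBAP-KO.

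The highest means over the 8 libraries belonged to RPLP1 (1803 FPKM, raised by that 1 library), RPS6 (1737) and RPL37A (1584). RPS6 was at 2062 and 1798 in sh-Ctrl, 1656 and 1909 in sh-CBAP, 1937 and 1939 in CBAP-reconstituted and 1273 and 1320 in CBAP-KO. The CBAP-KO libraries lay below all others. The lowest means were those of RPS28 (2.46 FPKM), RPL9 (6.21) and RPL12 (6.80). All 3 encode canonical proteins of the particle. The listed FPKM of members thus spanned a wide range. Whether reads shared with other entries, such as pseudogenes, lowered some of these values was not tested.

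**Figure D1:**
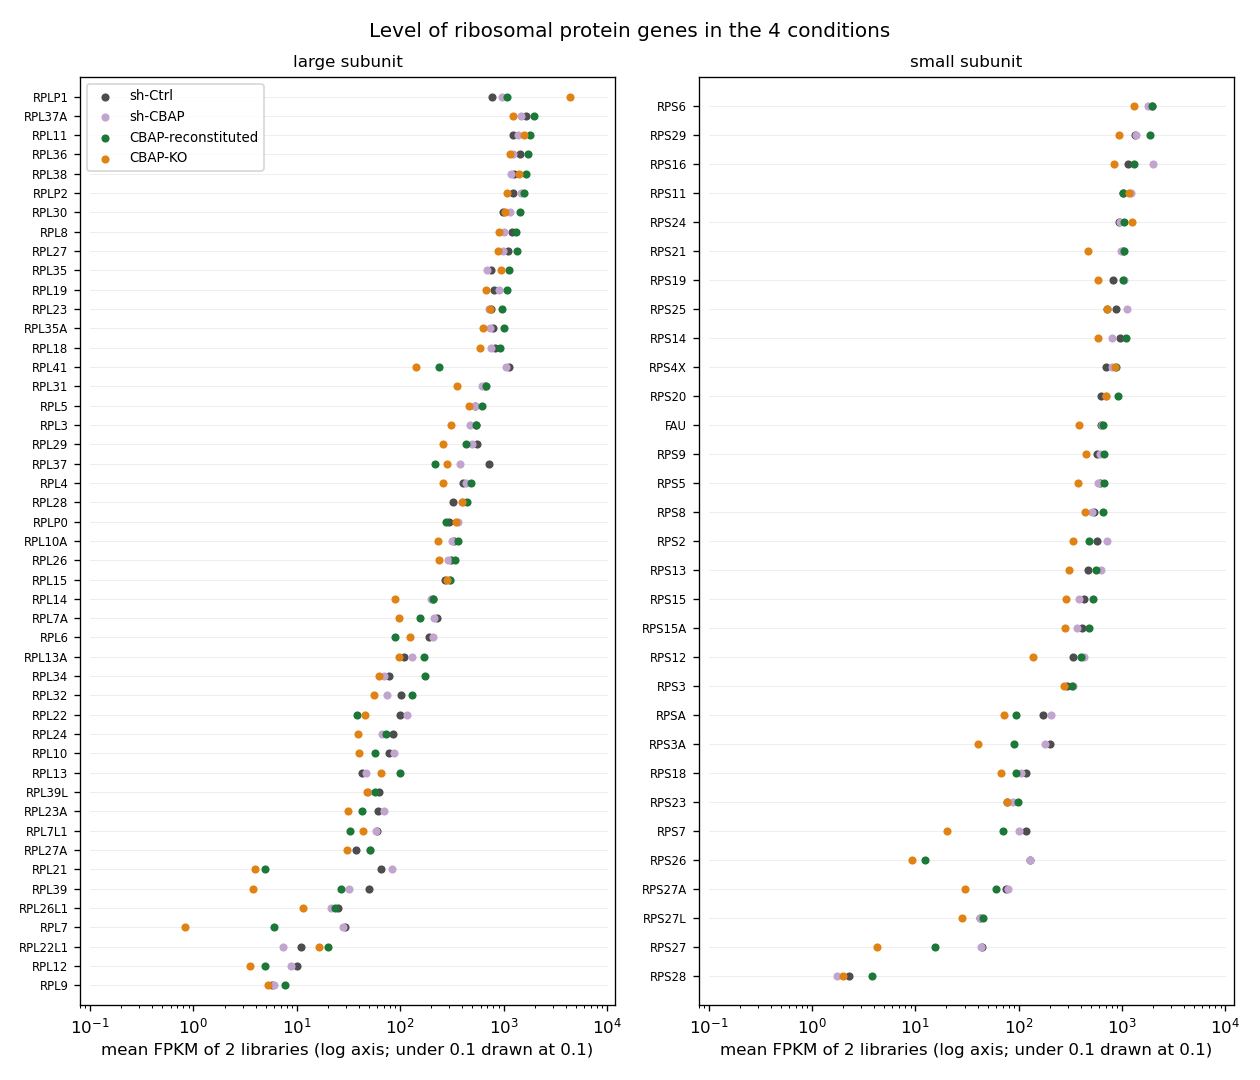
Mean FPKM of the 2 libraries of each condition (log axis) for 47 large and 31 small subunit genes, ordered by the mean over all 8 libraries, with values under 0.1 drawn at 0.1. CBAP-KO points (orange) lie left of CBAP-reconstituted points (green) for most genes, and RPL21 and RPS26 stand far lower in the CRISPR than in the shRNA set.

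Levels of some members also differed between the CBAP-expressing cells of the sets. The CBAP-reconstituted mean was a median of 110% of the sh-Ctrl mean, but 13 of 81 members were under 50% and 2 were over 200%. Among those under 50% were RPL21, RPS26, RPL7, RPL41, RPL37, RPS27, RPL22, RPS3A, RPL6 and RPL12. RPS26, for example, was at 127.2 and 130.1 in sh-Ctrl against 13.57 and 11.1 in CBAP-reconstituted cells. Cell line, processing and set cannot be told apart here. Changes were therefore taken within each set.

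Most ribosomal protein genes were lower in CBAP-KO than in CBAP-reconstituted cells. Of 81 members, 55 fell and 3 rose at an adjusted p under 0.05 (limma on log2(FPKM + 1) with Benjamini-Hochberg adjustment over 11427 genes). Of all genes tested, 25.9% fell and 23.9% rose in the same comparison. The members that fell were 32 of the 48 large subunit genes and 23 of the 33 small subunit genes, and the 3 that rose (RPL6, RPL22 and RPLP0) are all of the large subunit. The median log2 change was -0.56 for the large and -0.67 for the small subunit, against 0.0 for all genes. After quantile normalization these medians were -0.35 and -0.41. Changes on this scale understate those of genes with low FPKM. As FPKM gives shares of the RNA in a culture, fewer cells using a gene and less of its RNA per cell cannot be told apart. The count that fell was 43 after quantile normalization, 53 after median-of-ratios scaling and 41 to 60 with any 1 library left out.

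**Figure D2:**
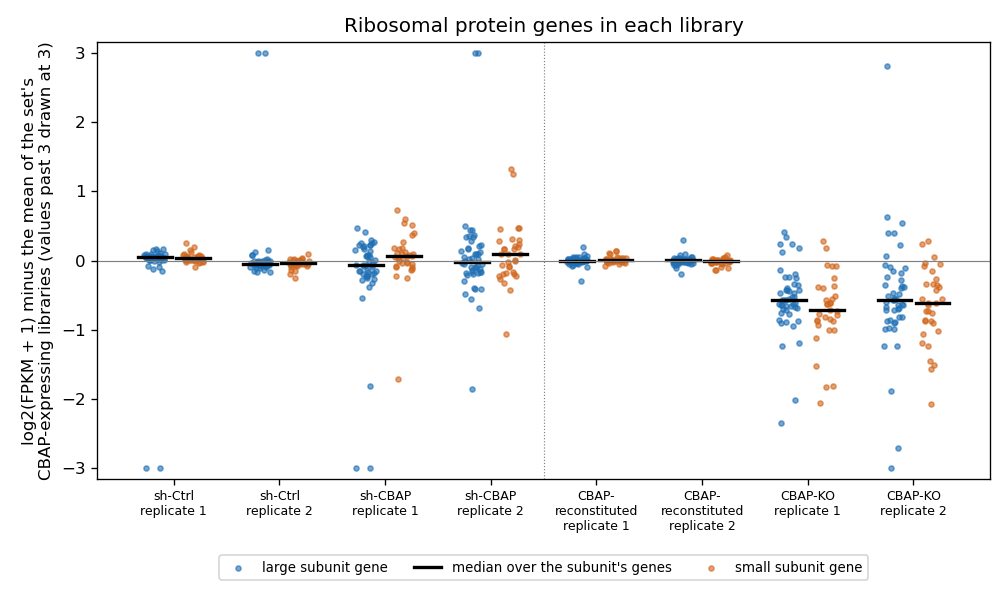
Each point is 1 gene in 1 library, as log2(FPKM + 1) minus its mean in the 2 CBAP-expressing libraries of the same set, with bars at the median of each subunit and values past 3 drawn at 3. The medians were -0.068 to 0.094 in the sh-CBAP libraries and -0.71 to -0.57 in the CBAP-KO libraries.

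Both CBAP-KO libraries showed the shift. Measured from the CBAP-reconstituted mean, 42 and 41 of the 48 large subunit genes were below 0 in replicates 1 and 2, with medians of -0.57 and -0.57. For the small subunit these were 31 and 30 of 33 genes, with medians of -0.71 and -0.61. Of all 11427 genes tested, 5655 had a negative change between the conditions, and no such count was made for single libraries. The middle 50% of the large subunit's changes between conditions ran from -0.75 to -0.28 and that of the small subunit's from -0.93 to -0.38, so the subunits overlapped broadly. No test between the subunits was made.

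Among the small subunit genes, RPS7, which can bind MDM2 when free of the ribosome, was at 74.73 and 65.04 FPKM in CBAP-reconstituted and 16.02 and 24.76 in CBAP-KO cells. Its log2 change was -1.76 (SE 0.19, limma adjusted p = 0.00109). RPS12, a protein of the beak of the small subunit, was at 429.0 and 370.9 against 137.9 and 134.6 (log2 change -1.54, SE 0.13, limma adjusted p = 0.000414). In both genes the CBAP-KO libraries lay far below the reconstituted ones, and CBAP-KO held 29.2% and 34.1% of the reconstituted mean FPKM. RPS27, a zinc-finger protein, went from 15.97 and 15.21 to 3.747 and 4.835, a log2 change of -1.66 (SE 0.52) that passed by little (limma adjusted p = 0.0428). It did not pass when either sh-Ctrl library or any library of the CRISPR set was left out (limma adjusted p = 0.0668 to 0.154). RPS21 was at 1074 and 1021 against 482.6 and 458.7, RPS3A at 91.66 and 86.88 against 44.11 and 37.33, and RPS29 at 1935 and 1793 against 924.8 and 924.6. All 3 are core proteins of the subunit, and each fell by a log2 change of 1.0 to 1.2, to 44.9%, 45.6% and 49.6% of the reconstituted mean (limma adjusted p = 0.000481, 0.000726 and 0.000343).

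Of the large subunit, RPL39, a small protein that lines the exit tunnel, was at 30.2 and 22.91 FPKM in CBAP-reconstituted and 4.377 and 3.18 in CBAP-KO cells. Its log2 change of -2.53 (SE 0.59) had a limma adjusted p of 0.0161, and of 0.0629 to 0.089 without either reconstituted library or CBAP-KO replicate 2. RPL7 went from 5.762 and 6.335 to 0.7481 and 0.9096, 13.7% of the reconstituted mean and a log2 change of -1.95 (SE 0.11, limma adjusted p = 0.000139). The CBAP-KO values of RPL7 were near the floor, below the 1 FPKM added before taking logs. RPL39 and RPL7 were also low in the reconstituted cells compared with sh-Ctrl, in which RPL7 stood at 26.4 and 32.64. RPL14 fell from 216.4 and 202.9 to 88.26 and 89.0 (log2 change -1.23, SE 0.055, limma adjusted p = 5.47e-05). RPL32 fell from 134.6 and 127.8 to 57.14 and 55.07 (-1.21, SE 0.085). For RPL14 and RPL32 the libraries of a condition differed by little compared with the gap between conditions. RPL31, at the tunnel exit, was at 691.8 and 662.8 against 369.8 and 341.3, 52.5% of the reconstituted mean (limma adjusted p = 0.000248).

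Most other members that fell did so by less. They included RPS6 (log2 change -0.58, SE 0.095, limma adjusted p = 0.00464), whose adjusted p was 0.13 after quantile normalization. RPS14, on the platform of the small subunit, went from 1106 and 1092 to 577.1 and 587.8, and RPS13 from 556.9 and 558.5 to 304.8 and 305.5 (log2 changes -0.91 and -0.87). RPL10, which joins the large subunit late in its maturation and is mutated in some T-ALL, was at 61.79 and 53.61 against 39.87 and 40.05 (log2 change -0.52, SE 0.10). Its limma adjusted p of 0.00884 became 0.0558 without CBAP-reconstituted replicate 1 and 0.06 after quantile normalization. RPL26, RPL9, RPL27A and RPSA also fell, by log2 changes of -0.51, -0.46, -0.73 and -0.37. RPL26 did not pass without CBAP-reconstituted replicate 1 (limma adjusted p = 0.0552), nor RPL9 without that library, the other reconstituted library or CBAP-KO replicate 1 (0.0903 to 0.0998). The members that encode a ubiquitin-type domain fused to a ribosomal protein, RPS27A and FAU, both fell, to 50.6% and 59.5% of the reconstituted mean (limma adjusted p = 0.00261 and 0.000167).

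The members that rose were RPL6, from 89.63 and 88.24 to 118.8 and 130 (log2 change 0.48, SE 0.065, limma adjusted p = 0.00234), RPL22 and RPLP0. RPL22, which is recurrently deleted in T-ALL, was at 38.31 and 38.93 in CBAP-reconstituted and 45.63 and 45.17 in CBAP-KO cells (0.23, SE 0.051, limma adjusted p = 0.0136). RPLP0, the scaffold of the P stalk that recruits translation factors, was at 269 and 285.6 against 327.0 and 366.1 (0.32, SE 0.10, limma adjusted p = 0.0438). The last of these was 0.0585 to 0.193 when any library of the CRISPR set was left out, and that of RPL22 was 0.0635 to 0.0863. Both RPL6 and RPL22 stood at under 50% of the sh-Ctrl mean in the reconstituted cells, so their rise in CBAP-KO was towards the level of the shRNA set without reaching it.

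Genes of the P stalk did not all change in one direction. RPLP2 fell from 1599 and 1548 to 1065 and 1086 (log2 change -0.55, SE 0.061, limma adjusted p = 0.00114) while RPLP0 rose. After quantile normalization RPLP2 had a log2 change of -0.25 and did not pass (limma adjusted p = 0.0753). RPLP1 had 1075 and 1078 in the reconstituted cells and 1224 and 7540 in CBAP-KO, and RPL12, at the base of the stalk, had 4.862 and 4.948 against 3.42 and 3.589 (limma adjusted p = 0.165 and 0.121). Of the 5S RNP, which with 5S rRNA can bind MDM2, RPL5 fell (607.8 and 632.5 to 458.1 and 470.9, limma adjusted p = 0.0104) and RPL11 had 1771 and 1838 against 1582 and 1586 (limma adjusted p = 0.151). RPL5 was at a log2 change of 0.01 after quantile normalization (limma adjusted p = 0.931), so its fall depended on the scaling. It did not pass without either reconstituted library or CBAP-KO replicate 1 either (0.0517 to 0.0715). At the tunnel exit 5 of 8 genes fell (62.5%) and RPL22 rose, and 9 of 14 genes of the small subunit head fell (64.3%), against 67.9% of all members and 25.9% of all genes tested. Of 15 genes linked to Diamond-Blackfan anemia 8 fell (53.3%). RPS19, the gene most often mutated in it, was at 1042 and 991.6 against 553.2 and 614.5. Its log2 change of -0.80 (SE 0.28) did not pass (limma adjusted p = 0.0601). The SE draws on all 4 conditions, and the sh-CBAP libraries of RPS19 lay apart, at 1371 and 719. Of the 4 genes altered in T-ALL, RPL5 and RPL10 fell, RPL22 rose and RPL11 did not pass the test.

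In the shRNA set few members passed. Of the 81 genes, 3 fell (RPL32, RPL22L1 and RPL39L) and 4 rose (RPL22, RPL27A, RPS13 and RPSA) in sh-CBAP against sh-Ctrl cells. The test was limma with Benjamini-Hochberg adjustment over all genes tested. Of all genes tested, 8.70% fell and 3.62% rose. The median log2 change was -0.079 for the large subunit and 0.033 for the small subunit, against -0.06 for all genes. When the scaling centred the changes of all genes near 0, the medians of the subunits were -0.013 and 0.10. The calls were unstable: between 0 and 11 genes fell and 1 to 8 rose with any 1 library left out, and 0 passed in either direction from the 4 libraries of the set alone. The fewest genes fell without sh-Ctrl replicate 1 or any library of the CRISPR set, and the most without sh-CBAP replicate 1. Leaving out a CRISPR-set library kept the shRNA changes as they were and altered only the estimate of the spread. From the 4 libraries alone, RPS13 and RPL27A kept log2 changes of 0.43 and 0.45 (limma adjusted p = 0.186 and 0.184). The share of all genes that passed in that fit was not counted.

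RPS13, a core protein of the small subunit, was at 482.4 and 454.4 in sh-Ctrl and 616.1 and 648.4 in sh-CBAP cells, a log2 change of 0.43 (SE 0.051, limma adjusted p = 0.00954). RPL27A was at 39.47 and 35.55 against 49.96 and 53.2 (0.45, SE 0.067, limma adjusted p = 0.017). Their libraries did not overlap between conditions. Both passed without any 1 library of their own set, but RPL27A did not without either reconstituted library (limma adjusted p = 0.0615 and 0.0616). RPSA, which also serves as a laminin receptor, was at 173.9 and 172.2 against 196.7 and 215.1 (0.25, limma adjusted p = 0.0462), and RPL22 at 103.4 and 96.03 against 116.9 and 116.2 (0.22, limma adjusted p = 0.0453). RPL32 was at 101.3 and 102.8 in sh-Ctrl against 81.49 and 69.01 in sh-CBAP (-0.44, limma adjusted p = 0.0297). These 3 calls were lost when most single libraries were left out. The limma adjusted p of RPSA was 0.0913 to 0.121 and that of RPL32 0.0643 to 0.0914 without any 1 library outside sh-CBAP, and that of RPL22 was 0.0542 to 0.119 without any 1 other than sh-Ctrl replicate 1.

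**Figure D3:**
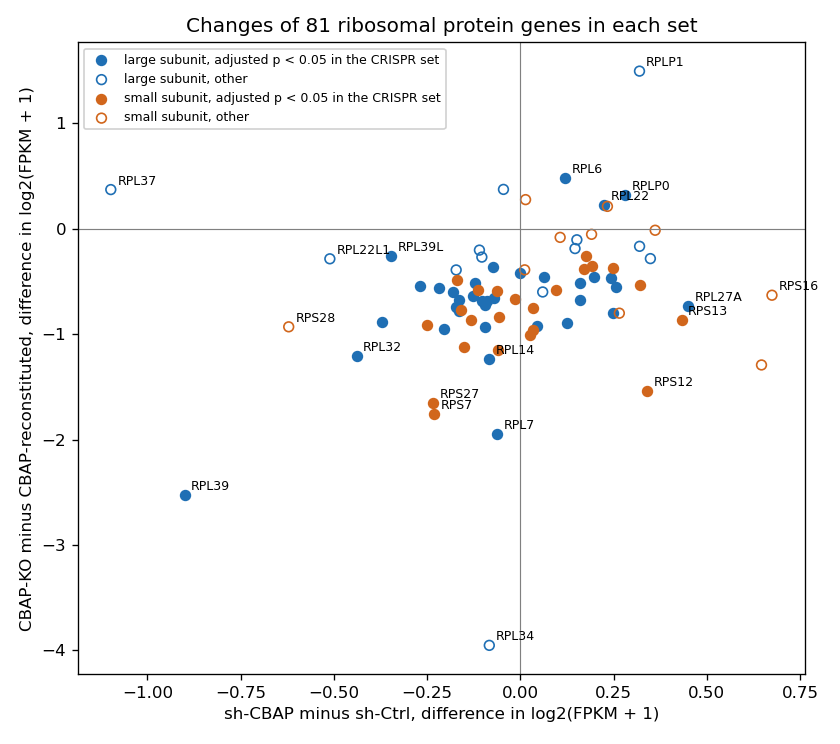
Change of each of the 81 genes in the shRNA set (x axis) and in the CRISPR set (y axis), both as differences in log2(FPKM + 1), filled where the CRISPR change had an adjusted p under 0.05. Most points lie below 0 on the y axis and spread to both sides of 0 on the x axis, and RPL34 and RPLP1 stand apart through single libraries.

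The changes differed between the sets for many members. In the test of the difference (shRNA change minus CRISPR change, same limma fit), 46 of the 81 genes were past the threshold with the larger value in the shRNA set and 1, RPL6, with the smaller, against 15.5% and 18.3% of all genes. By subunit these 46 were 25 large and 21 small genes. Among those past the threshold RPS12 had the joint highest difference, 1.88 (SE 0.18, limma adjusted p = 0.0014), with log2 changes of 0.34 and -1.54 in the shRNA and CRISPR sets. RPL7, under 1 FPKM in CBAP-KO cells, reached 1.88 too, RPS7 1.52 (limma adjusted p = 0.0102), RPS13 1.30 and RPL27A 1.19. Of the genes past the threshold in both sets, RPL32 and RPL39L fell in both, RPL22 rose in both, and RPL27A, RPS13 and RPSA rose with the shRNA and fell in the knockout. By sign alone 40 of 81 members were lower in both sets and 33 in the CRISPR set only. The sets share no library.

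The 4 CBAP-deficient and the 4 CBAP-expressing libraries were also compared with no term for the set. At a limma adjusted p under 0.05, 0 of the 81 members and 0.621% of all genes differed. The median log2 change of the members was -0.32, and 67 of 81 were below 0. For all genes tested the median was -0.035, and 6217 of 11427 were below 0. With the set as a covariate 5 members fell and 1 rose, and the share of all genes under that model was not counted.

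Several members are paralogs of other members. RPL22L1 was at 12.12 and 9.922 FPKM in sh-Ctrl against 7.223 and 7.579 in sh-CBAP (log2 change -0.51, SE 0.10, limma adjusted p = 0.0305), while RPL22 rose there. The adjusted p of RPL22L1 from limma was 0.0628 to 0.0891 without sh-Ctrl replicate 1, sh-CBAP replicate 1 or any library of the CRISPR set. Between CRISPR-set conditions RPL22L1 was at 20.5 and 19.74 against 15.72 and 16.96 (limma adjusted p = 0.0591). RPL26L1 fell more than RPL26 in CBAP-KO cells (log2 changes -0.96 and -0.51), and RPS27L, a p53 target in some cells, less than RPS27 (-0.67 and -1.66). RPL39L had the higher FPKM of its pair in 7 of 8 libraries. It fell by 0.35 with the shRNA and by 0.26 in the knockout on the log2 scale (limma adjusted p = 0.0366 and 0.029). After median-of-ratios scaling these were 0.117 and 0.0771, and after quantile normalization 0.141 and 0.463, the latter with a log2 change of -0.094. With 1 library left out they reached 0.105 (sh-Ctrl replicate 1) and 0.146 (CBAP-reconstituted replicate 1). RPL7L1, an assembly factor related to RPL7, had 32.1 and 33.99 in CBAP-reconstituted and 35.97 and 51.58 in CBAP-KO cells (limma adjusted p = 0.13). The differences between paralog and partner were not tested.

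Some values carry limits of the table itself. RPL13 was listed at 0 in replicate 1 of sh-Ctrl and of sh-CBAP and at 85.41 and 92.87 in their second replicates, and RPL34 was listed at 0 in the same 2 libraries and in CBAP-KO replicate 2, against 125.5 to 181.2 in the other 5 libraries. RPS28 was listed at 0 in sh-CBAP replicate 1. A 0 was read only as a listed 0. With the 4 members ever listed at 0 left out, 55 of 77 fell in the CRISPR set. Processed pseudogenes share sequence with many members: RPL13AP5 alone was listed at 1467 to 2437 FPKM and RPSAP58 at 214.0 to 606.7, above RPL13A and RPSA in every library. RPL13AP5 and RPSAP58 fell in the CRISPR set by log2 changes of -0.66 and -0.56 (limma adjusted p = 0.000982 and 0.000783). Of 13 tested pseudogene entries 5 fell and 3 rose there.

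Ribosomal protein mRNAs are short and abundant, and both properties moved with the change in the CRISPR set among other genes. The members' spliced transcripts had a median of 755.5 bases against 2686.5 for the other tested genes, and 58 of the 80 members with a length were at most 1000 bases. Among the 9558 other genes with a length, the median log2 change in the CRISPR set went from -0.33 up to 500 bases, -0.41 from 500 to 750 and -0.34 from 750 to 1000, to 0.18 above 6000 bases. Members in these 3 bins had medians of -0.37, -0.61 and -0.67. Of 156 other genes of at most 1000 bases and a mean FPKM of at least 100, 96 fell (61.5%) and 14 rose, with a median of -0.40. Among the members 67.9% fell, with a median of -0.60. In the shRNA set the bin medians of the other genes lay between -0.12 and -0.022. The part of transcript length or abundance in the members' change was not tested.

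Members with and without a TOP start at the annotated first base fell in similar shares. In some members classed as without one, such as RPL4 and RPL10A, a pyrimidine run lies shortly after that base. The split therefore does not cleanly separate TOP mRNAs from others. Of the 42 members with one 28 fell in the CRISPR set (median log2 change -0.63), and of the 22 with another start 14 fell (-0.66). Among other genes with a TOP start, 118 of 417 fell (28.3%, median -0.041). Of 21 tested genes known as TOP mRNAs outside the ribosome, 11 fell and 1 rose. They included the elongation factors EEF1A1 (151.1 and 146.0 to 90.13 and 82.91 FPKM, log2 change -0.77, limma adjusted p = 0.00317) and EEF2 (945.6 and 956.6 to 639.7 and 643.4, -0.57). TPT1, a growth-related TOP mRNA, rose in both sets, by 0.51 and 0.45 (limma adjusted p = 0.0126 and 0.00319). GNB2L1, the scaffold RACK1 of the small subunit, fell from 1426 and 1452 to 1059 and 1044. Of 12 regulators of TOP mRNAs and of the S6 kinase axis 4 fell (33.3%, against 25.9% of all genes tested) and 1 rose, with a median of -0.054. Among the 4, LARP1 fell from 83.61 and 81.49 to 47.95 and 46.54 (log2 change -0.79, SE 0.065, limma adjusted p = 0.000435), and RPS6KB2, an S6 kinase, from 47.99 and 49.09 to 30.2 and 28.64 (-0.70). RPS6KB1, another S6 kinase, had 15.27 and 15.7 against 13.71 and 15.06, and MTOR had 14.41 and 13.66 against 13.26 and 13.47 (limma adjusted p = 0.453 and 0.366). RPS6KA1, EIF4EBP1 and EIF4EBP2 did not pass either.

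Many genes for building the ribosome also fell. Of 48 tested factors of small subunit assembly 30 fell and 1 rose in CBAP-KO cells, with a median log2 change of -0.50, against 25.9% lower and 23.9% higher of all genes tested. Of 57 factors of large subunit assembly 28 fell and 2 rose (median -0.35), and of 16 proteins of the snoRNPs that modify rRNA 11 fell and 0 rose (-0.56). Examples were EMG1, an rRNA methyltransferase (78.65 and 78.42 to 29.72 and 26.29 FPKM), and FBL, the box C/D methyltransferase (267.3 and 274.5 to 151.2 and 156.9). BOP1, of the PeBoW complex, went from 77.49 and 87.3 to 3.515 and 3.587, a log2 change of -4.19. PES1 and WDR12 of that complex fell by far less (log2 changes -0.60 and -0.43, limma adjusted p = 0.0215 and 0.0338). Of 73 mitochondrial ribosomal protein genes, which form the separate ribosome of mitochondria, 59 fell and 0 rose, with a median of -0.69. In the shRNA set these 4 lists had 1, 2, 0 and 5 genes that fell and 1, 1, 0 and 0 that rose. Of all genes tested, 8.70% fell and 3.62% rose there. No difference between the lists was tested.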

How the data were processed

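RNA from 8 libraries of Jurkat cells was sequenced by the authors as 100-base paired-end reads on a HiSeq 2000 and aligned to hg19 with TopHat 2, and cuffdiff gave the FPKM values they deposited. The gene annotation, the library scaling and whether the sets were processed together are not given in the sources used here. The 11427 genes whose FPKM averaged at least 1 were tested on the log2(FPKM + 1) scale with limma 3.58.1 (R 4.3.3, empirical Bayes with trend, Benjamini-Hochberg adjustment), with a mean per condition or, for the 4 against 4 comparison, per class. Summaries used Python 3.11.15, pandas 2.3.3 and scipy 1.17.1. The fit was checked on simulated data. The limma fit stands in for the authors' cuffdiff test, which needs reads. Depth is unknown, and precision rests on 2 libraries per condition.

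Members and gene lists (parts of the ribosome, disease genes, paralogs, pseudogenes, TOP mRNAs and their regulators, assembly factors, snoRNP and mitochondrial ribosomal proteins) were chosen with earlier results of these data known. Named members were the 6 largest changes per subunit and direction in each set whose conditions do not overlap, the 5 largest differences between sets, the 3 highest and 3 lowest by mean FPKM, all listed at 0, and genes fixed by role or paralogy. Some genes taken in by these rules are not reported here. RPS26 and the members listed by their level between sets, the pseudogenes and the other examples from the lists were chosen after their values were seen. Transcript lengths are the median over protein-coding transcripts tagged basic in GENCODE 44 lifted to GRCh37. Alternatives changed the pseudocount, filter, scaling, listed zeros, trend, replicate block, covariate and libraries.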

Additional observations from a re-analysis of the deposited data

Results flagged for a closer look

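Dixon's gap criterion was applied to the 4 CBAP-expressing and the 4 CBAP-deficient libraries of the 41 named members, 82 groups in all. A single library stood far from the other 3 in 3 groups. The nominal chance figure of about 4.1 groups cannot be set against this. RPL13 and RPL34 were named for a listed 0, and RPLP1 partly for a mean that 1 library raised. Each group also pools libraries of 2 sets, between which the levels of some members differed. RPL13 and RPL34 were each listed at 0 in sh-Ctrl replicate 1, and RPLP1 was listed at 7540 FPKM in CBAP-KO replicate 2.

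The change differed between the shRNA and the CRISPR set, by the limma difference of the log2 changes (shRNA minus CRISPR), for 23 of the named members. Of all genes tested, 18.3% had a lower and 15.5% a higher value by the same test. Some members were named for large changes or for this difference, so their count is not comparable with those shares. In the small subunit the difference was 1.88 for RPS12, 1.52 for RPS7, 1.3 for RPS13, 1.09 for RPS21, 1.04 for RPS29, 0.991 for RPS27A, 0.968 for RPS3A, 0.781 for FAU, 0.664 for RPS14, 0.653 for RPS27L, 0.616 for RPSA and 0.465 for RPS6. In the large subunit it was 1.88 for RPL7, 1.19 for RPL27A, 1.15 for RPL14, 0.833 for RPL31, 0.804 for RPLP2, 0.771 for RPL32, 0.751 for RPL26L1, 0.676 for RPL10, 0.509 for RPL37A and 0.414 for RPL5. RPL6 alone had the opposite sign, -0.359. Those of RPL5, RPL6, RPL10, RPL37A, RPLP2, RPS6, RPS14 and RPS27L were lost under at least 1 alternative. Set, line and processing cannot be told apart, so what made the sets differ was not tested.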

How the results depend on the processing

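In the CRISPR set, the count of genes that fell stayed within 1.5 times of 55 under all alternatives run, from 41 to 62. The other counts moved. In the shRNA set 3 fell and 4 rose, against 1 and 8 with median-of-ratios scaling (with or without the ribosomal protein genes in the factors), 0 and 0 from the set's own libraries, and 0 to 11 and 1 to 8 with 1 library left out. With no trend 2 rose. The share of all genes that passed from a set's own libraries was not counted. In the CRISPR set 3 rose, against 8 after quantile normalization, 6 from the set's own libraries and 1 to 5 with 1 library left out. Of the differences 1 was lower and 46 higher, against 3 and 29 after quantile normalization, and 0 to 3 were lower with 1 library left out. Between the classes, 1 fell after quantile normalization, and 5 fell and 1 rose with the set as covariate. The medians of the large and small subunits in the shRNA set were -0.028 and 0.0894 after quantile normalization, -0.0126 and 0.1 after median-of-ratios scaling, -0.0122 and 0.101 with factors made without these genes, and -0.119 to -0.0153 and 0.0273 to 0.0939 with 1 library left out. In the CRISPR set they were -0.351 and -0.408 after quantile normalization, and that of the small subunit was -0.586 with a pseudocount of 5 and -0.709 to -0.607 with 1 library left out. RPL5 changed sign in the CRISPR set after quantile normalization (0.01041, adjusted p = 0.931 from limma). The causes of these shifts were not tested.

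The labels do not say whether replicate numbers mark shared cultures or runs. The correlation across genes of replicate differences was 0.146 between sh-Ctrl and sh-CBAP, where RPL13 and RPL34 were listed at 0 in replicate 1 of both, and 0.0239 between the conditions of the CRISPR set, so pairing remains unsettled in the shRNA set. With the replicate block 2 genes rose and 2 fell in the shRNA set, 54 fell and 2 rose in the CRISPR set, and the differences were 42 higher and 1 lower. RPL22, RPL22L1 and RPSA were not past the threshold with the block in the shRNA set (adjusted p = 0.0745, 0.0616 and 0.0682 from limma). Of 60 changes of named members past the threshold, 34 were past it under each alternative run. FPKM keeps no depth, which limits any statement on low genes such as RPS28.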
